A study of Mus musculus with 6 samples.

Results

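The genes described here mark and pattern the progenitor cells of the embryonic neural tube. A set of 34 gene symbols was chosen by role, and a gene was taken as measured where the array held at least 1 probe set annotated to that symbol alone. In all, 32 of the 34 were measured, through 50 probe sets, out of 12393 genes with such a probe set. Dbx1 and Dbx2, homeobox genes of the intermediate neural tube, had no such probe set and were not analysed here.

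The tissue came from C57BL/6 mouse embryos at 9.5 days post coitum. The control embryos carried wild-type Dll3 on both chromosomes. The mutant embryos were homozygous for the Dll3 neo allele, also called tm1Rbe, in which Dll3 is disrupted in every cell. Each sample was a pool of embryos, with 3 wild-type and 3 Dll3 mutant pools and 1 Affymetrix MOE430A array per pool, and how many embryos made up a pool is not stated in the sources used here. The dissected piece ran from the otic placode to the newest somite, without heart and endoderm, so the neural tube was one tissue in it beside somites and other tissues of that level. Values were deposited as ratios to a reference of the same probe set, so they show how a gene differed between pools and hold no level that could be compared between genes. For the same reason the label of the tissue could not be checked against the levels of neural or somite markers.

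The neural tube is patterned from both ends. Sonic hedgehog from the notochord and floor plate sets up ventral progenitor domains, and BMP and Wnt signals from the roof plate set up dorsal ones. Homeobox and basic helix-loop-helix factors of neighbouring domains repress each other, which sharpens the borders. Genes of the SoxB1 group keep cells in the progenitor state, and Notch signalling between neighbouring cells holds some progenitors back while others become neurons. Dll3, a divergent Notch ligand, is known for its part in somite segmentation and is also expressed in newborn neurons of the neural tube, and the series compared genotypes to find genes that differ in somite-level tissue when Dll3 is disrupted.

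No gene of the set passed the test. In limma on log2 ratios, adjusted by Benjamini-Hochberg over all 12393 genes, each of the 32 genes had an adjusted p of 0.9997, and 0 genes passed an adjusted p of 0.05 over the whole array (0% of genes). At an unadjusted p under 0.05 there was 1 gene of the set, Foxj1, beside 2.67% of all genes. The same gene was the only one of the 32 whose mutant pools did not overlap the wild-type pools, beside 7.46% of all genes (3.98% with the mutant higher and 3.49% with the mutant lower). The log2 difference was above 0 in the mutant for 22 of the 32 genes and below 0 for 10, with a median of 0.032, where 51.9% of all genes were above 0 with a median of 0.0035. With the sex score described below as a covariate, 13 of the 32 were above 0 and the median was -0.029. The 95% interval of the difference lay within a 1.5-fold change in either direction for 29 of the 32 genes, and reached past it for Fabp7, Foxa1 and Olig2. An exact permutation test of 3 pools against 3 cannot give a p below 0.1, and having only 6 arrays limits the precision. In bulk tissue, fewer cells of a type and less RNA per cell cannot be told apart.

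**Figure D1:**
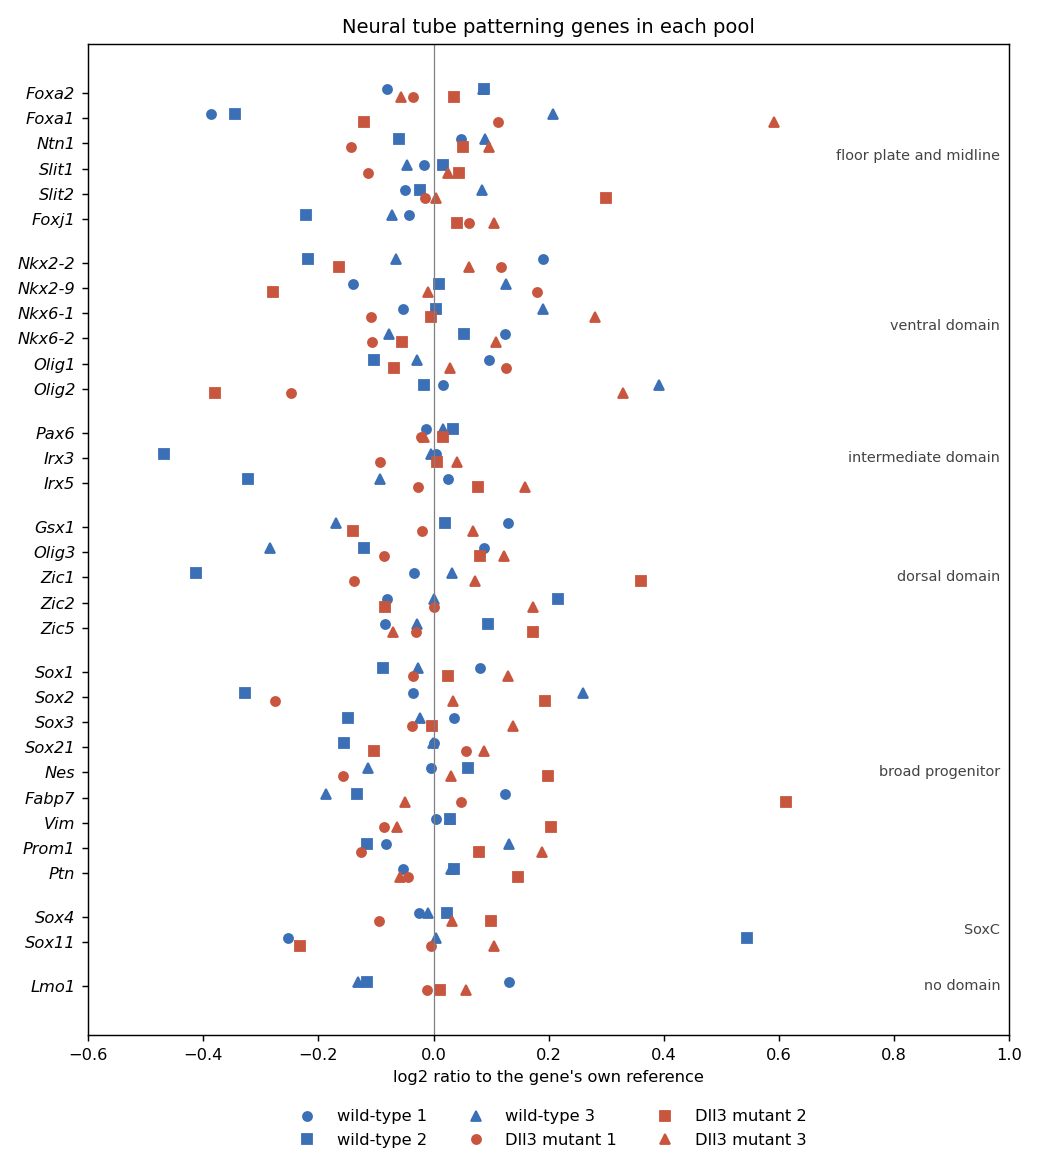
Log2 ratio of each gene to its own reference (horizontal axis) in each of the 6 pools, with genes grouped by domain. Blue symbols are wild-type and red symbols Dll3 mutant pools, and the shape gives the replicate number; colours are mixed in every row except that of Foxj1, where all 3 mutant pools lie above all 3 wild-type pools.

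The pools differed in ways that the genotype labels do not give. The sex score, which is the log2 level of Xist minus the mean of 3 Y-linked genes, ran from -1.73 to -0.085 in the wild-type pools and from 0.045 to 0.81 in the mutant pools, so it parted the genotypes. Otx2 and Lhx2, transcription factor genes of brain regions in front of the dissected level (Lhx2 also of the limb bud), were at ratios of 2.21 and 2.25 in mutant replicate 1, with the other 5 pools at 0.907 to 1.04 and at 0.781 to 1.16. Of 13 head neural genes, 8 were measured (4 higher, 4 lower, 0 called, median 0.041), and their mean log2 ratio was 0.29 in mutant replicate 1 and -0.22 to -0.073 in the other pools. Otx2 and Lhx2 are in this list and carried most of that mean. In mutant replicate 1 En2 was at 1.41, Six6 at 1.21, Barhl1 at 1.01 and Six3 at 0.977. En1 and Egr2, below 1 in every pool, were at 0.812 and 0.751. Without mutant replicate 1 the median log2 difference of the 32 neural tube genes was 0.063, with 22 above 0. Primitive erythroid genes were higher for 8 of 10 measured genes, with a median of 0.21, 0 called, and Hemgn, Slc4a1 and Hba-x at 0.34, 0.28 and 0.24 on the log2 scale (the smallest p-values of that list). The erythroid median was 0.059 once the sex score was a covariate. The part of these differences in the results below was not tested.

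The floor plate is the ventral midline of the neural tube, a source of Sonic hedgehog and of axon guidance cues. Its 6 genes were at 4 higher and 2 lower, with 0 called and a median log2 difference of 0.047. Foxj1 encodes the master regulator of motile cilia and is expressed in the floor plate and node. Its ratio was 0.971, 0.858 and 0.951 in wild-type replicates 1 to 3, and 1.04, 1.03 and 1.08 in mutant replicates 1 to 3. Every mutant pool lay above every wild-type pool, by a narrow margin. The wild-type mean was 0.927 ± 0.060 (SD, n = 3) and the mutant mean 1.05 ± 0.024 (SD, n = 3). On the log2 scale the difference was 0.18 (SE 0.077, 95% interval 0.0096 to 0.35), with a limma p of 0.040 and an adjusted p of 0.9997. In the limma fit over probe sets, its only probe set had an unadjusted p of 0.061. It was between 0.13 and 0.22 when any single pool was left out, and 0.11 with the sex score as a covariate.

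Foxa1 and Foxa2 encode closely related forkhead factors that are expressed in the floor plate and in the gut endoderm. Foxa1 had the largest log2 difference of the 32 genes, at 0.37 (SE 0.190, 95% interval -0.053 to 0.79, adjusted p = 0.9997). Its ratio was 0.765, 0.787 and 1.15 in wild-type and 1.08, 0.920 and 1.51 in mutant replicates 1 to 3. The groups overlapped, since wild-type replicate 3 lay above mutant replicates 1 and 2. Leaving out mutant replicate 3 gave 0.17, and leaving out wild-type replicate 3 gave 0.56. Foxa2 did not share this profile. It was at 0.945, 1.06 and 1.06 in wild-type and 0.975, 1.03 and 0.962 in mutant replicates, with a log2 difference of -0.050 (SE 0.079).

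Markers of endoderm and other epithelia were set beside Foxa1 because the dissection removed the endoderm. The 3 pools in which Foxa1 was highest, wild-type replicate 3 and mutant replicates 1 and 3, were also those in which the mean log2 ratio of 15 measured endoderm genes (of 17 listed) was above 0, at 0.12, 0.12 and 0.068. It was -0.11 and -0.15 in wild-type replicates 1 and 2, and -0.12 in mutant replicate 2. The epithelial cadherin gene Cdh1 was at 0.585, 0.696 and 1.29 in wild-type and 0.988, 1.01 and 1.22 in mutant pools. Cdh1 is expressed in surface ectoderm as well as in gut epithelium. Of the endoderm genes 8 were higher in the mutant and 7 lower (median log2 difference 0.068, 0 called). The genes of smallest p in that list were Rbp4, Cdh1 and Hhex, with log2 differences of 0.37, 0.41 and -0.15. The part of epithelial RNA in the Foxa1 values was not tested.

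**Figure D2:**
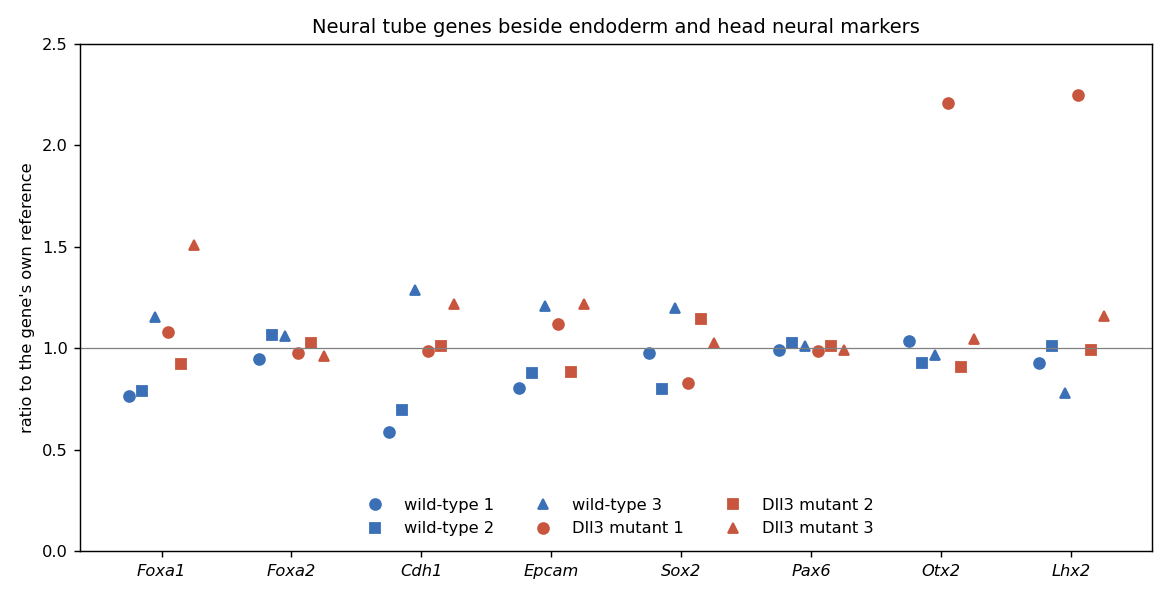
Ratio of 8 genes to their own reference (vertical axis) in each pool, with colours and shapes for genotype and replicate number. The 3 highest pools of Foxa1 are also those of Epcam. They are not those of Cdh1, which is at 1.01 in mutant replicate 2 and 0.988 in mutant replicate 1. Foxa2 stays between 0.945 and 1.06, and Otx2 and Lhx2 stand at 2.21 and 2.25 in mutant replicate 1, where Sox2 is at 0.826.

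The axon guidance genes of the midline were close between genotypes. Ntn1, which encodes the commissural axon attractant netrin 1, had a log2 difference of -0.024 (95% interval -0.22 to 0.17). Slit1 and Slit2, which encode midline repellents, were at 0.00096 (95% interval -0.17 to 0.17) and 0.092 (95% interval -0.12 to 0.31). Slit2 was at 1.23 in mutant replicate 2 and between 0.967 and 1.06 in the other 5 pools, and without that mutant pool its difference was -0.0091. The median of the 6 floor plate and midline genes was -0.019 without the same pool.

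Ventral progenitor domains are set by Nkx2-2 and Nkx2-9 next to the floor plate, by Olig2 and Olig1 in the motor neuron domain, and by Nkx6-1 and Nkx6-2 across the ventral tube. Of these 6 genes 3 were higher and 3 lower in the mutant, with 0 called and a median log2 difference of -0.014. Olig2, which specifies motor neuron progenitors, had the widest difference of them, at -0.23 (SE 0.173, 95% interval -0.61 to 0.15, adjusted p = 0.9997). Its ratio was 1.01, 0.988 and 1.31 in wild-type and 0.842, 0.769 and 1.26 in mutant replicates 1 to 3. Both pools numbered 3 were high and the 2 other mutant pools were the lowest, so the groups overlapped. Leaving out mutant replicate 3 gave -0.44 and leaving out mutant replicate 2 gave -0.090. Olig1, its neighbour gene, lay between 0.931 and 1.09 in all pools and had a log2 difference of 0.040 (SE 0.085).

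The Nkx homeobox genes of the ventral tube were nearer to 0. Nkx2-2 was at 0.035, Nkx2-9 at -0.036, Nkx6-1 at 0.0085 and Nkx6-2 at -0.051 on the log2 scale, with SEs of 0.087 to 0.118. The 2 highest values of Nkx6-1, as of Olig2, were those of the pools numbered 3, 1.14 in wild-type and 1.22 in mutant. The pools numbered 3 were the 2 highest for 5 of the 32 genes (15.6%), beside 15.7% of all genes. Among the 6 ventral genes, Olig2 and Nkx6-2 kept the sign of their difference whichever pool was left out.

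The signals upstream of the ventral domains were read from a separate list. Of 13 genes for hedgehog signalling, 11 were measured (7 higher, 4 lower, 0 called, median 0.010). Shh itself was at -0.13 (SE 0.093), its receptor gene Ptch1, which is also a transcriptional target of the pathway, at -0.12 (SE 0.10) and the transducer gene Smo at 0.10 (SE 0.123). Shh was at 0.833 in mutant replicate 1 and between 0.940 and 1.07 in the other 5 pools. In the notochord list 4 of 6 genes were measured (1 higher, 3 lower, 0 called, median -0.11). Chrd, which encodes a secreted BMP antagonist of the midline, was at -0.12 (SE 0.083), Shh as above and Cdx2, which is shared with the posterior axis, at -0.10 (SE 0.077).

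The intermediate neural tube was covered by 3 measured genes of 5, of which 2 were higher and 1 lower, with 0 called and a median log2 difference of 0.14. Irx3 and Irx5 are neighbouring Iroquois homeobox genes, and Irx3 sets the dorsal border of the motor neuron domain. Irx5 was at 1.02, 0.80 and 0.938 in wild-type and 0.982, 1.06 and 1.12 in mutant replicates 1 to 3. Irx3 was at 1.003, 0.723 and 0.997 in wild-type and 0.937, 1.004 and 1.03 in mutant replicates 1 to 3. Wild-type replicate 2 was the lowest pool for both genes, and the remaining pools of both genotypes overlapped. The fitted difference on the log2 scale was 0.20 (SE 0.099, 95% interval -0.021 to 0.42, adjusted p = 0.9997) for Irx5 and 0.14 (SE 0.122, 95% interval -0.13 to 0.41) for Irx3. Without wild-type replicate 2 it was 0.10 for Irx5 and -0.016 for Irx3, and the median of the 3 genes was -0.0095. Irx5 was at -0.031 and Irx3 at -0.063 with the sex score as a covariate.

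Pax6, a paired homeobox gene expressed through the middle of the progenitor zone, was measured by 5 probe sets, whose mean lay between 0.985 and 1.02 in all 6 pools. This narrow range comes from averaging probe sets that differed: singly they ranged over 0.15 to 0.41 on the log2 scale, and 4 of the 5 ranged more widely than the median gene of the array (0.28). The log2 difference was -0.020 (95% interval -0.17 to 0.13). Its single probe sets had log2 differences of -0.12 to 0.12, with 4 below 0 and 1 above.

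**Figure D3:**
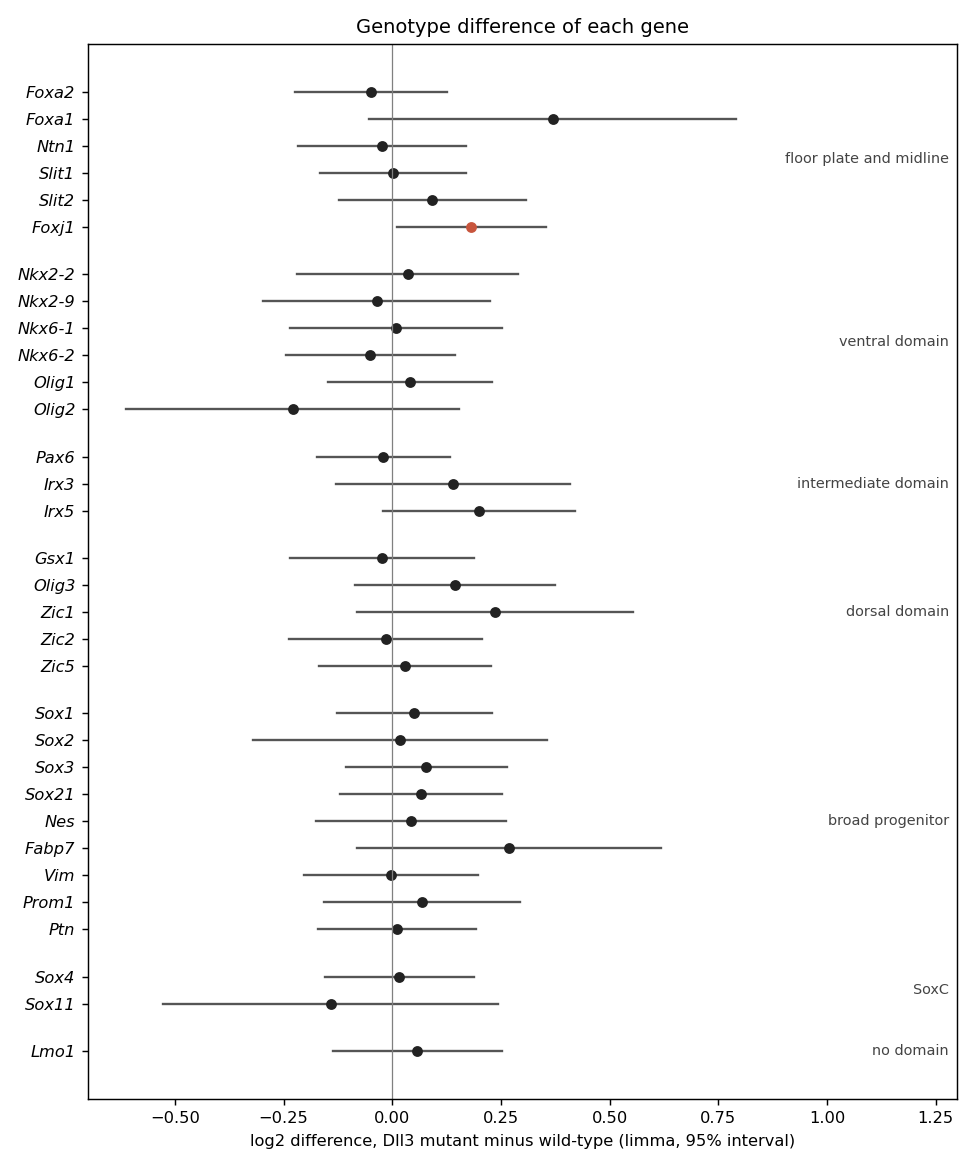
Log2 difference of each gene, Dll3 mutant minus wild-type, with its 95% interval from limma (horizontal axis), grouped by domain. The red point is Foxj1, the gene whose groups do not overlap and whose interval leaves out 0; the widest intervals are those of Foxa1, Sox11 and Olig2.

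Dorsal progenitors were represented by Olig3 and Gsx1, which act in dorsal interneuron domains, and by 3 Zic genes, which encode zinc finger factors of the dorsal tube and are also expressed in dorsal somites. Of these 5 genes 3 were higher and 2 lower, with 0 called and a median log2 difference of 0.029. Zic1 was at 0.977, 0.751 and 1.02 in wild-type and 0.909, 1.28 and 1.05 in mutant replicates 1 to 3. Its lowest pool was wild-type replicate 2 and its highest mutant replicate 2, and the genotypes were mixed among the other 4 (0.909 to 1.05). On the log2 scale the difference was 0.24 (SE 0.143, 95% interval -0.080 to 0.55, adjusted p = 0.9997), and leaving out either wild-type replicate 2 or mutant replicate 2 gave 0.099 or 0.10. It was -0.0053 with the sex score as a covariate. Zic2 and Zic5 did not follow Zic1. They were at -0.015 (SE 0.10) and 0.029 (SE 0.089), and wild-type replicate 2 was the highest pool for Zic2, at 1.16.

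Olig3 was at 1.06, 0.920 and 0.821 in wild-type and 0.942, 1.06 and 1.09 in mutant replicates 1 to 3. The 2 lowest pools were wild-type, but wild-type replicate 1 reached the level of the upper mutant pools. Olig3 had a log2 difference of 0.14 (SE 0.104, 95% interval -0.085 to 0.38, adjusted p = 0.9997), which was -0.20 with the sex score as a covariate. Gsx1 was at -0.023 (SE 0.095). Whether dorsal, intermediate and ventral genes differed from each other in their response was not tested, and the ranges of their log2 differences overlapped: -0.023 to 0.24, -0.020 to 0.20 and -0.23 to 0.040.

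Other dorsal and roof plate genes were at 10 higher and 5 lower of 15 measured (17 listed), with a median of 0.046 and 0 called. Msx3, a homeobox gene restricted to the dorsal neural tube, was at 0.22 (SE 0.109). Its relative Msx1, which is expressed in the roof plate and in several mesenchymal tissues, was at -0.15 (SE 0.080). The LIM homeobox gene Lmx1b was at 0.15 (SE 0.084). Msx1 and Lmx1b had groups that did not overlap, in opposite directions, beside 3.98% of all genes with the mutant higher and 3.49% with it lower. Pax3 and Pax7, paired box genes shared by dorsal neural tube and dermomyotome, were at 0.024 (SE 0.088) and -0.11 (SE 0.120); these 2 were named after their values were seen.

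Genes that mark progenitors along the whole tube were at 8 higher and 1 lower of 9, with 0 called and a median log2 difference of 0.051. With the sex score as a covariate this median was -0.056. Sox1, Sox2 and Sox3 form the SoxB1 group, and Sox21 is a SoxB2 gene that acts against them. Their log2 differences were 0.051 (95% interval -0.13 to 0.23), 0.018 (95% interval -0.32 to 0.36), 0.078 (95% interval -0.11 to 0.26) and 0.066 (95% interval -0.12 to 0.25). All 4 had their lowest value in wild-type replicate 2, at 0.941, 0.797, 0.902 and 0.898. Sox2 varied most of them. It was at 0.976, 0.797 and 1.20 in wild-type and 0.826, 1.14 and 1.02 in mutant pools, so mutant replicate 1 was nearly as low as wild-type replicate 2, and the range of 0.59 on the log2 scale was at percentile 96.4 of all genes. Without wild-type replicate 2 the difference of Sox2 was -0.13, and without mutant replicate 1 it was 0.15.

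Fabp7 encodes a brain fatty acid-binding protein of radial glial progenitors and is known as a target of Notch signalling in these cells. It was at 1.09, 0.912 and 0.879 in wild-type and 1.03, 1.53 and 0.966 in mutant replicates 1 to 3. A single pool, mutant replicate 2, stood apart, and the other 5 lay between 0.879 and 1.09 with the genotypes mixed. On the log2 scale the difference was 0.27 (SE 0.158, 95% interval -0.082 to 0.62, adjusted p = 0.9997), and 0.064 without mutant replicate 2. With the sex score as a covariate it was -0.099. The mean log2 ratio of 22 measured young neuron genes was also highest in mutant replicate 2, at 0.17. It was 0.13, 0.026 and -0.11 in wild-type replicates 1 to 3, and -0.080 and -0.056 in mutant replicates 1 and 3. The list was not uniform in mutant replicate 2. Nefl, Stmn2, Tubb3 and Nefm stood highest there, at 1.62 to 1.68, Neurod1 followed at 1.35, and Mnx1 was lowest at 0.683. The part of neuronal RNA in the Fabp7 values was not tested. The intermediate filament genes Nes and Vim, the secreted growth factor gene Ptn and the membrane protein gene Prom1 were at 0.043, -0.0029, 0.011 and 0.069. Mutant replicate 2 was also the highest pool for Nes (1.15), Vim (1.15) and Ptn (1.11). Vim and Ptn are expressed widely in mesenchyme, so their ratios cannot be assigned to the neural tube.

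Promoter sequences are shown for 3 genes, each of which holds a match to the motif marked in it. Fabp7 was taken as a known Notch target with 1 outlying mutant pool. Irx3 and Zic1 were taken from the 10 genes that were lowest in wild-type replicate 2. Each sequence is the 250 bases before the annotated start, 5′ to 3′ on the gene's strand, from RefSeq on GRCm38.p6. Capitals mark a motif match on either strand. For Fabp7 and Irx3 the motif is TGGGAA, the core bound by RBPJ, the DNA-binding partner of Notch, and for Zic1 it is CACGTG, an E-box. The windows are chr10:57784673-57784922 on the + strand for Fabp7, chr8:91801655-91801904 on the - strand for Irx3 and chr9:91365769-91366018 on the - strand for Zic1.
Fabp7: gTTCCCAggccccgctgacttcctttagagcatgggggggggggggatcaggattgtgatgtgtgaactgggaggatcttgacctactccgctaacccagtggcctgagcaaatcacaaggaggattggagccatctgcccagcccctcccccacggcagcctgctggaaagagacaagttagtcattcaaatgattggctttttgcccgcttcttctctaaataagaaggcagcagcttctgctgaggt
Irx3: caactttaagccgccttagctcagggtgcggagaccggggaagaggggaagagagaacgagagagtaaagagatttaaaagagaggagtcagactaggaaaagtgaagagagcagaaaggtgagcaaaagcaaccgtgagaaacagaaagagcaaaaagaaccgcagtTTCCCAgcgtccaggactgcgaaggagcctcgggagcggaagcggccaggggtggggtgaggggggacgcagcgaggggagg
Zic1: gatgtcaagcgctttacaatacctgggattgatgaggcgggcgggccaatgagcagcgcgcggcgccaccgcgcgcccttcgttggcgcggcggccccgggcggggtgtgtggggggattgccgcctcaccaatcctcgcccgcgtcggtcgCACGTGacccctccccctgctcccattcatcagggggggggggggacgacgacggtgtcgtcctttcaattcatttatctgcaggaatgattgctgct

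The table of promoters held 30 windows for 25 of the 32 genes. TGGGAA was found in 7 of these windows (23.3%), of Fabp7, Irx3, Lmo1, Prom1, Ptn and Sox4, beside 21.6% of all 32851 windows of the same length. CACGTG was found in 2 (6.67%), of Nkx2-2 and Zic1, beside 6.02% of all windows. The longer GLI motif GACCACCCA, bound by the transcription factors of the hedgehog pathway, was found in 0 of the 30 windows and in 0.225% of all windows. The match of Fabp7 begins 249 bases before the start, that of Irx3 82 bases and that of Zic1 98 bases. The shares in the neural tube genes lay close to those of all windows, and a match describes letters in a window, not a binding site.

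Sox4 and Sox11 are SoxC genes, which act as progenitors become neurons and are also expressed in mesenchyme. Sox11 was at 0.839, 1.46 and 1.003 in wild-type and 0.997, 0.852 and 1.08 in mutant replicates 1 to 3. Wild-type replicate 2 was the highest pool, so in this pool Sox11 stood high while all 4 SoxB genes stood lowest. The log2 difference was -0.14 (SE 0.173, 95% interval -0.53 to 0.24), and 0.081 without that pool. Sox4 was at 0.016 (SE 0.077) as the mean of its 6 probe sets, of which 3 were above 0 and 3 below, from -0.10 to 0.21. Lmo1, a LIM-only cofactor gene, was at 1.10, 0.923 and 0.913 in wild-type and 0.992, 1.01 and 1.04 in mutant replicates 1 to 3. Its groups overlapped through wild-type replicate 1, the highest pool, and its log2 difference was 0.057 (SE 0.087).

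Probe sets of the same gene did not always move alike. Of the 9 genes with more than 1 probe set, 5 had probe sets on both sides of 0 (Nes, Pax6, Sox4, Vim and Zic5) and 4 had all on 1 side (Ntn1, Ptn, Slit2 and Sox3). For Zic5 they were at -0.099 and 0.16, and for Nes between -0.13 and 0.15. Of the 50 probe sets, 1 had an unadjusted p under 0.05, beside 2.63% of all probe sets, and it belonged to Sox4. That Sox4 probe set was higher in every mutant pool (0.21), while another was lower in every mutant pool (-0.088). With that of Foxj1, 3 of the 50 probe sets had groups without overlap, beside 7.46% of all genes. The share over all probe sets was not computed. No annotation of which transcript a probe set reads was used, so these differences are given as measured.

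Some pools were extreme for these genes more often than others, in both genotypes. Wild-type replicate 2 was the lowest pool for 10 of the 32 genes (31.3%, beside 18.5% of all genes) and mutant replicate 1 for 9 (28.1%, beside 21.0%). Mutant replicate 3 was the highest pool for 11 (34.4%, beside 18.8%) and mutant replicate 2 for 9 (28.1%, beside 13.8%). The 10 genes lowest in wild-type replicate 2 were Sox1, Sox2, Sox3, Sox21, Foxj1, Nkx2-2, Olig1, Irx3, Irx5 and Zic1, which come from the floor plate, ventral, intermediate, dorsal and broad groups. Those highest in mutant replicate 3 included Sox1, Sox3, Sox21, Irx3, Irx5, Olig3 and Foxj1. The median range of a gene over the 6 pools was 0.31 on the log2 scale, beside 0.28 for all genes.

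**Figure D4:**
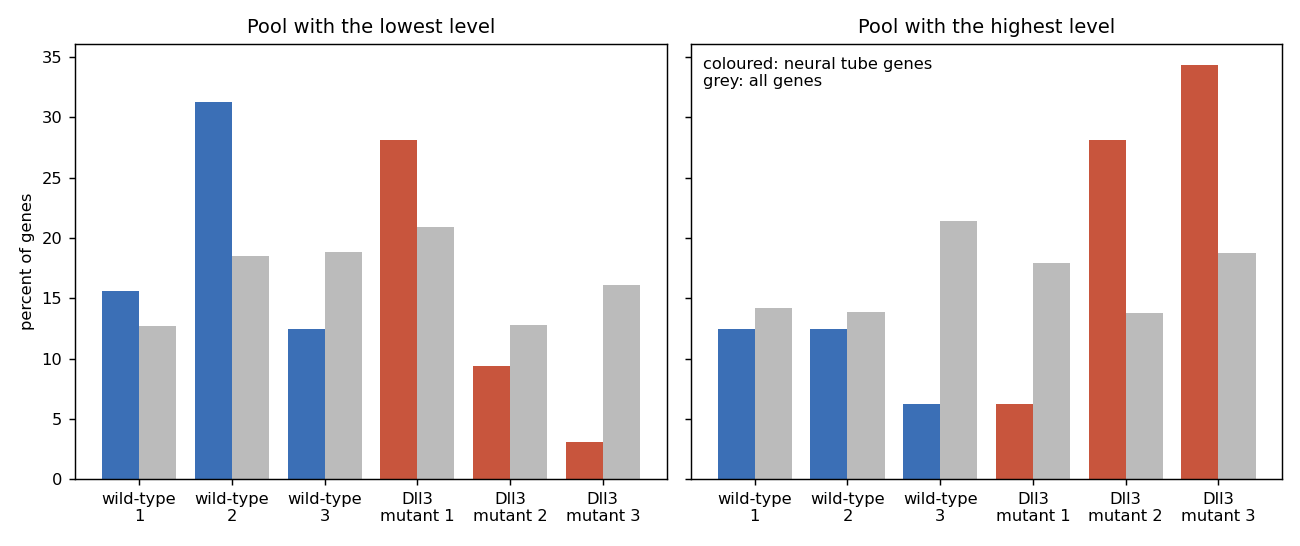
Percent of genes (vertical axis) for which each pool was the lowest of the 6 (left) or the highest (right), for the 32 neural tube genes (coloured, blue for wild-type and red for mutant) and for all 12393 genes (grey). Wild-type replicate 2 is the lowest pool for 31.3% of the neural tube genes and mutant replicate 3 the highest for 34.4%.

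The dependence on single pools differed between domains. The median of the 9 broad progenitor genes stayed above 0 whichever pool was left out, from 0.023 to 0.11, as did that of the 5 dorsal genes, from 0.018 to 0.079. The dorsal median was nevertheless -0.015 where each gene was read from its most variable probe set, and -0.0053 with the sex covariate. No gene of the 32 passed the test in any of these fits. The median of the 6 ventral genes ranged from -0.077 without mutant replicate 3 to 0.062 without mutant replicate 2. That of the 3 intermediate genes ranged from -0.0095 without wild-type replicate 2 to 0.22 without wild-type replicate 1.

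**Figure D5:**
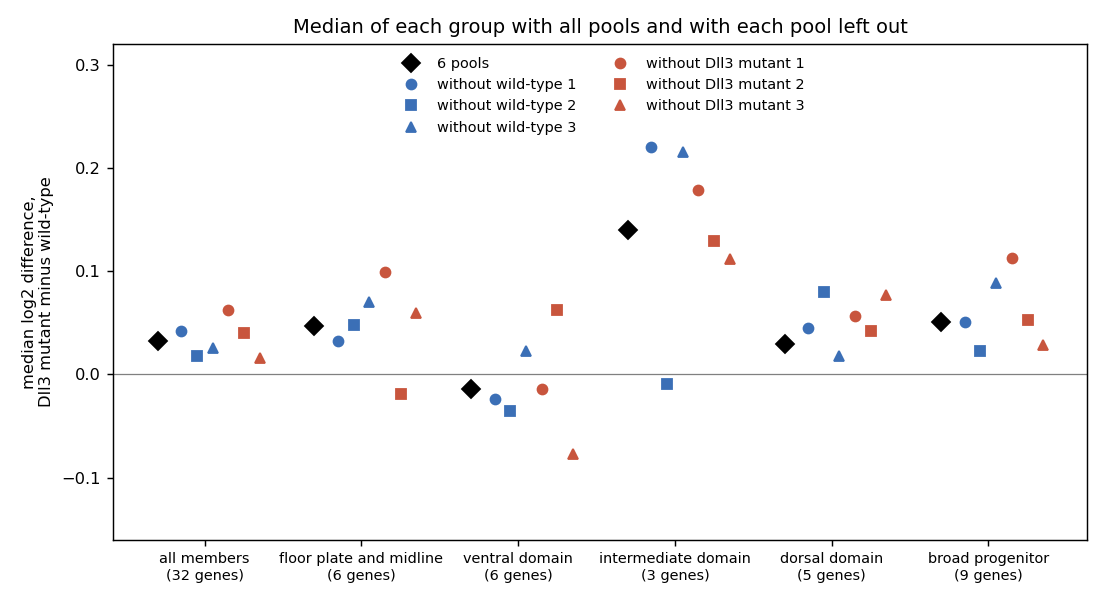
Median log2 difference of each gene group, Dll3 mutant minus wild-type (vertical axis), with all 6 pools (black diamond) and with each pool left out (coloured by the genotype of the pool left out, shape by its number). The intermediate group falls from 0.14 to -0.0095 without wild-type replicate 2, and the floor plate group from 0.047 to -0.019 without mutant replicate 2.

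Genes of Notch signalling in neural progenitors gave no call either. All 13 listed genes were measured (6 higher, 7 lower, 0 called, median -2.9e-05). This balance depended on single pools: 9 were higher without mutant replicate 1 (median 0.071) and 4 without mutant replicate 2 (median -0.027). With the sex score as a covariate 5 were higher and the median was -0.083. The Notch modifier genes Lfng and Mfng were at 0.11 (SE 0.082) and 0.093 (SE 0.078), and the ligand gene Jag2 at -0.096 (SE 0.075). Hes5 and Hes1, targets of Notch that keep neural progenitors from differentiating, were at 0.058 (SE 0.092) and 0.061 (SE 0.077), and Dll1, the ligand of the neural tube that acts in lateral inhibition, at -0.063 (SE 0.076). Dll3 itself was at -0.021 (SE 0.073), and since the sources used here do not say whether its probe set lies beyond the insertion, this value does not check the labels. Hes5, Hes1, Dll1 and Dll3 were named for their role and not by the size of their p.

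The progeny of these progenitors were followed through genes of young neurons. Of 24 genes 22 were measured, with 11 higher and 11 lower, a median of -0.0047 and 0 called. This split rested on single pools: 4 of the 22 were higher without mutant replicate 2 (median -0.095), and 14 when either wild-type replicate 1 or mutant replicate 1 was dropped (medians 0.069 and 0.065). With the sex score as a covariate 3 were higher and the median was -0.24. Mnx1, a homeobox gene of motor neurons, was at 1.12, 1.05 and 1.02 in wild-type and 0.983, 0.683 and 0.894 in mutant replicates 1 to 3, and every mutant pool lay below every wild-type pool. Its log2 difference was -0.33 (SE 0.122, adjusted p = 0.9997 in limma). Isl2, also of motor neurons, was at -0.16 (SE 0.077) without overlap, while its relative Isl1 was at 0.10 (SE 0.091) with overlap. Neurod4, a proneural factor gene, was higher in every mutant pool, at 0.051 (SE 0.071). Groups without overlap, as for these 3 of the 22 genes, were found in 7.46% of all genes. The third gene by p was Mapt, the gene of the microtubule-associated protein tau, at -0.18 (SE 0.105). Mutant replicate 2, the lowest pool for Mnx1, was the highest for Nefl (1.68) and Nefm (1.62), which encode neurofilament subunits, and for the neuronal cytoskeleton genes Stmn2 (1.63) and Tubb3 (1.62). Other neuronal cytoskeleton genes did not all follow. In that pool Nefh was at 0.978, Map2 at 0.980 and Mapt at 0.962. Ina was at 1.12 there, below its 1.28 in wild-type replicate 1, while Dcx was highest there, at 1.14.

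Other tissues of the same level were read from further lists, each with 0 called. Neural crest genes were at 6 higher and 4 lower of 10 measured, with a median of 0.021, and Foxd3, Snai1 and Ets1 at -0.14, -0.13 and -0.063. Somite and sclerotome genes were at 2 higher and 9 lower of 11, with a median of -0.064. Uncx had the largest difference of that list, at -0.998 (adjusted p = 0.12 in limma). It was below an adjusted p of 0.05 with the replicate block, with array weights and with a variance trend, and above it in the other alternatives. It was followed in order of p by Meox2 at -0.23 and Tcf15 at -0.19. What share of each pool was neural tube was not measured.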

How the data were processed

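RNA from 3 wild-type and 3 Dll3 mutant pools was measured on Affymetrix MOE430A arrays. The authors deposited 1 table of 22690 probe sets, whose values read as linear ratios to a reference, since the median over the pools is 1 (within 0.0015) in 93.4% of rows. The submitters' processing notes name RMA and MAS5 without a version, and nothing used here states how arrays were scaled. Dim probe sets could not be recognised from ratios, and noise near background can look like a difference.

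After 64 control probe sets were left out, log2 of the deposited ratios was taken with no pseudocount. Of the other 22626 probe sets, 20380 had 1 gene symbol in the platform annotation, 691 several and 1555 none, and 20351 were matched to current symbols by gene identifier. Probe sets of a gene were averaged on the log2 scale, so its printed ratio is their geometric mean. Genotypes were compared in R 4.3.3 with limma 3.58.1, without a variance trend, two-sided, at a Benjamini-Hochberg threshold of 0.05 over 12393 genes. The fit was also run on simulated data, where it recovered 93.1% of log2 differences of 0.5 and 6.76% of calls were false. The simulated pools were independent, unlike the real pools, whose deviations correlate as given below. The simulation therefore cannot show how the fit behaves on these pools. Nothing says which embryos made up a pool, so p-values measure the spread between these pools.

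The members and lists were chosen with earlier results of these data known. Values in every pool are given for genes whose groups do not overlap, the 8 genes of smallest p and the gene of largest difference in each group. Sox2, Foxa2, Cdh1, Mnx1, Isl1, Neurod4, Nefl, Nefm, Stmn2 and Tubb3 were added after their values were seen. So were Nefh, Map2, Ina, Dcx, Neurod1, En2, Six6, Six3, En1 and Egr2. In other lists the 3 genes of smallest p are named. In all, 17 alternatives were run.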

Additional observations from a re-analysis of the deposited data

How the results depend on the processing

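No member passed an adjusted p of 0.05 in limma under any of 17 alternatives, where the smallest adjusted p of a member was 0.46, with array weights. Among all genes, limma called 0, and 331 had an unadjusted p under 0.05. The replicate block, array weights and a variance trend each called 1 gene, Uncx, and fits with a pool left out called 0 to 1 (Xist, without wild-type replicate 1). Among probe sets the calls numbered 1 with the replicate block, 1 with array weights and 0 to 1 with a pool left out. Genes at an unadjusted p under 0.05 numbered 1200 with array weights, 617 with the replicate block, 156 with the sex score and 174 to 683 with a pool left out. Deviations from the genotype means correlated at 0.36, -0.038 and 0.40 over genes between pools numbered 1, 2 and 3 alike. Between pools of unlike number the correlations ran from -0.45 to 0.23. The labels name no pairing, so the main fit did not pair the pools, and the replicate block was run as an alternative. What pools of the same number share was not tested. With the sex score as a covariate 19 of 32 members changed sign. The medians were then -0.029 for all members, -0.056 for broad progenitor genes, 0.13 for SoxC genes, -0.031 for intermediate genes and -0.18 for Lmo1. The sex score parts the genotypes, so the effects of sex mix and genotype cannot be told apart. Array weights gave a floor plate median of 0.11. With a pool left out the medians ran from -0.019 to 0.099 for floor plate, -0.0095 to 0.22 for intermediate and 0.018 to 0.079 for dorsal genes. The block and the trend cannot move a difference. Under the other 15 alternatives, 111 of 120 group medians and 459 of 480 member differences moved by less than 1 SD between pools. Part of both counts was fixed in advance. Leaving out rows with a median below 1 could move no member and no group, since 0 probe sets of members had such a median. The alternatives that choose among probe sets could not move the 23 members with 1 probe set. With so few pools per group, leaving out a single pool cannot move a member difference by 1 SD. Fabp7 fell from 0.27 to 0.064 without mutant replicate 2 and still counted as within its SD of 0.28. The count of 459 is therefore no measure of how far members depend on single pools, and the count of 111 includes medians that could not move. The cause of the differences between alternatives was not tested. Ratios keep no signal over background, so what dim signal limits could not be read.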
